A study of Mus musculus with 288 samples.

Results

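NRF2, the transcription factor encoded by Nfe2l2, was followed with its repressor and 8 of its classical target genes in 6 tissues of mice that had breathed normal air or had been exposed to intermittent hypoxia (IH). The 10 genes were taken by name (Nfe2l2, Keap1, Nqo1, Hmox1, Gclc, Gclm, Txnrd1, Srxn1, Gsr and Slc7a11) out of 35904 genes in the deposited tables, and a row was found for each of them. All mice were wild type C57BL/6J, 8 weeks old and male by the study's methods. They spent 7 days in normoxia, or in IH with oxygen alternating between 21% and 8% during the light phase. Both groups then stayed 2 days in constant darkness at normal oxygen, so that every tissue was taken after the hypoxia had ended. On the second of these days cerebellum, heart, kidney, liver, lung and muscle were taken at 8 times 3 h apart (labelled 1:30 to 22:30), with 3 libraries for each tissue, treatment and time, or 24 normoxia and 24 IH libraries in each of the 6 tissues. Whole pieces of tissue were used, so a lower level can reflect fewer cells of a type or less RNA per cell, and these cannot be told apart here.

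Cells make NRF2 all the time and destroy it as quickly, because KEAP1 holds it for ubiquitination. Oxidants and electrophiles modify cysteines of KEAP1, NRF2 then escapes destruction, enters the nucleus, pairs with a small MAF protein and binds antioxidant response elements (AREs) near its targets. The pathway is therefore steered mainly through the protein, and mRNA of the targets is its usual readout. Repeated falls and returns of oxygen are known to produce reactive oxygen species, and the lung, the liver and the kidney carry much of the body's defence against electrophiles.

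The members fall into 4 roles. The regulators are Nfe2l2 (GRCm38 chr2:75675513-75704641, minus strand) and Keap1 (chr9:21229730-21239361, minus strand). Glutathione supply needs Gclc (chr9:77754535-77794485, plus strand), the catalytic subunit of glutamate-cysteine ligase, its modifier subunit Gclm (chr3:122245557-122270732, plus strand), and Slc7a11 (chr3:49892526-50443614, minus strand), the transport subunit of the cystine/glutamate exchanger xCT. Thiol reduction needs Gsr (chr8:33652523-33698163, plus strand), which regenerates glutathione, Txnrd1 (chr10:82833951-82897712, plus strand), which regenerates thioredoxin, and Srxn1 (chr2:152105516-152111376, plus strand), which repairs overoxidised peroxiredoxins. Detoxification is represented by Nqo1 (chr8:107388225-107403206, minus strand), a quinone reductase, and Hmox1 (chr8:75093621-75100589, plus strand), which breaks down heme.

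The ARE is the DNA side of this pathway, and the stretches below show where its core letters stand closest to the transcription starts of the members. The letters TGACNNNGC, read on either strand, were looked for in promoter windows from RefSeq (GRCm38.p6, 250 bases before to 50 bases after each start). Of the 10 members, 7 had an entry, with 9 windows between them, and 4 of these 7 held the letters. The capitals mark the match, with 10 bases on either side, written 5′ to 3′ along the strand of the gene.
Gclm: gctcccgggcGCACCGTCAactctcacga
Nfe2l2: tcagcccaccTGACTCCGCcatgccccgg
Srxn1: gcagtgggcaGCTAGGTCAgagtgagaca
Txnrd1: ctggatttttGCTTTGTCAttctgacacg

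The Gclm match (chr3:122245413-122245441 with its flanks) began 134 bases before the start, the Txnrd1 match (chr10:82859104-82859132) 92 bases before the start of 1 of its 3 windows, and the Nfe2l2 match (chr2:75704885-75704913) 240 bases before the start. The Srxn1 match (chr2:152105542-152105570) lay inside the transcribed part, from base 29 after the start. In Gclm, Srxn1 and Txnrd1 the letters ran on the strand opposite to the gene, so that the printed strand shows them reversed and complemented. The letters stood in 4 of the 9 windows of members and in 4071 of all 32851 windows (12.4%). By gene they stood in 11 of 33 other NRF2 targets with an entry and in 3781 of all 27025 genes (14%), which describes letters and not bound sites. No match was found in the windows of Keap1, Nqo1 and Slc7a11, which says only that these letters are not in those 300-base windows. Hmox1, Gclc and Gsr had no entry.

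The tables hold TPM values, transcript abundance per length scaled to a fixed total per library. The depth of each library is unknown because TPM keeps none. Some libraries went against their labels: in 9 of them, all cerebellum except 1, the markers of another tissue summed higher than those of the labelled one. In the library labelled liver, IH, 13:30, number 2, liver markers summed to 1162.1 TPM and heart markers to 7635.75 TPM, and the median correlation with the other liver libraries was 0.693. In the library labelled cerebellum, IH, 1:30, number 3, the sums were 395.6 and 8766.85 TPM with a median correlation of 0.767. Test results that move without these libraries are given both ways. Correlations between genes were computed with them included. The labels number the replicates 1 to 3 and name no animal, so p-values measure the spread between libraries.

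In normoxia the kidney stood at the top for 6 of the 10 genes (Gclm, Gclc, Gsr, Txnrd1, Nqo1 and Srxn1), the lung for Nfe2l2 and Hmox1, muscle for Keap1 and cerebellum for Slc7a11. The heart was at the bottom for Keap1, Gclc, Gclm, Txnrd1, Srxn1 and Gsr. Levels are TPM as deposited, mean ± SD of 24 libraries, and tissues were compared pair by pair on log2(TPM + 0.5) by a 2-sided permutation test that exchanged tissue labels within time points (100000 resamples, smallest p 1e-05). Of 150 pairs (15 per gene), 132 differed after Benjamini-Hochberg adjustment. This test was run on the members alone. Counts of pairs, here and below, therefore have no share of all genes beside them and show nothing particular to these genes.

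Nfe2l2 mRNA was most abundant in lung at 96.1 ± 11.1 TPM, where the libraries ran from 75.6 to 117 with a median of 97.2. The kidney followed at 39.5 ± 5.0 and the cerebellum was lowest at 11.9 ± 2.3, an 8.04-fold range. Muscle (23.0 ± 4.2), liver (22.9 ± 5.0) and heart (21.6 ± 3.7) lay between them. Neighbours in this middle group did not differ beyond their spread, with adjusted p = 0.863 for muscle against liver and 0.377 for liver against heart in the permutation test. The repressor Keap1 spanned the least of all members, 2.29-fold, from 41.1 ± 5.1 TPM in muscle and 38.7 ± 3.3 in lung down to 18.0 ± 3.9 in heart. Muscle and lung (adjusted p = 0.111), cerebellum and liver (24.4 ± 4.9 and 22.8 ± 3.5, adjusted p = 0.262) and kidney and heart (19.4 ± 2.9 and 18.0 ± 3.9, adjusted p = 0.149) were not separated by the permutation test. The 2 regulators were thus ordered differently over the tissues.

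The catalytic subunit Gclc ran from 108 ± 30 TPM in kidney and 101 ± 40 in liver (adjusted p = 0.35 between them, permutation test) through 72.0 ± 8.1 in lung and 16.1 ± 4.8 in cerebellum to 5.52 ± 0.80 in muscle and 3.86 ± 1.84 in heart, a 28-fold range. Gclm, its modifier, reached 351 ± 43 TPM in kidney, the highest mean level of any member in any tissue, and fell through 188 ± 39 in liver, 60.7 ± 6.8 in lung, 32.3 ± 10.8 in cerebellum and 31.9 ± 4.9 in muscle to 17.3 ± 3.6 in heart. Only cerebellum and muscle among its neighbours did not differ (adjusted p = 0.715). The 2 subunits of one enzyme were not held in one ratio. Lung was the single tissue with more Gclc than Gclm per length, 1.20 ± 0.15 (SD, n = 24 libraries), against 0.530 ± 0.141 in liver, 0.514 ± 0.102 in cerebellum, 0.306 ± 0.066 in kidney, 0.217 ± 0.058 in heart and 0.175 ± 0.026 in muscle.

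Slc7a11, the cystine importer, averaged under 1 TPM outside the cerebellum. In cerebellum it measured 5.69 ± 4.72 TPM with a median of 4.13 and a range of 2.59 to 22.5. In lung it measured 0.709 ± 0.288, in heart 0.517 ± 0.984, in muscle 0.202 ± 0.108, in liver 0.172 ± 0.083 and in kidney 0.120 ± 0.061 TPM. The mean in heart was carried by a few libraries, since the median there was 0.206 and the highest library 4.28. Heart against muscle (adjusted p = 0.096) and muscle against liver (adjusted p = 0.337) did not pass the permutation test.

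Of the thiol reductases, Gsr was highest in kidney (79.8 ± 15.3 TPM), close between lung and liver (40.2 ± 3.9 and 39.0 ± 7.5, adjusted p = 0.353, permutation test), and lower in cerebellum (22.8 ± 3.7), muscle (13.5 ± 2.2) and heart (8.33 ± 3.56). Txnrd1 followed nearly the same order, from 75.8 ± 12.5 in kidney over 53.5 ± 14.8 in liver, 45.0 ± 4.7 in lung and 34.7 ± 5.8 in muscle to 14.8 ± 5.2 in cerebellum and 13.7 ± 4.0 in heart, where the last pair did not differ (adjusted p = 0.428). Srxn1 departed from it, with the cerebellum (31.9 ± 8.6) beside the kidney (32.5 ± 4.3) at the top. Those 2 did not differ (adjusted p = 0.435), nor did muscle, lung and liver as neighbours (16.7 ± 2.6, 16.6 ± 2.2 and 16.3 ± 7.1, adjusted p = 0.893 and 0.411), and the heart stood alone at 7.56 ± 1.38 TPM.

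Nqo1 was a kidney transcript first of all, at 46.1 ± 6.4 TPM, 8.81-fold above the liver at 5.23 ± 1.21. Heart (16.3 ± 2.5), muscle (12.2 ± 2.0), lung (9.44 ± 3.16) and cerebellum (9.17 ± 1.94) lay between, and lung and cerebellum did not differ (adjusted p = 0.862, permutation test). Hmox1 was highest in lung (30.3 ± 3.5) and kidney (27.3 ± 6.3), lower in liver (13.5 ± 7.4) and muscle (13.1 ± 3.3), and lowest in heart (6.11 ± 0.91) and cerebellum (4.20 ± 0.86). Liver and muscle did not differ (adjusted p = 0.746). The median of the 24 liver libraries was 11 TPM and the highest 40.2.

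**Figure D1:**
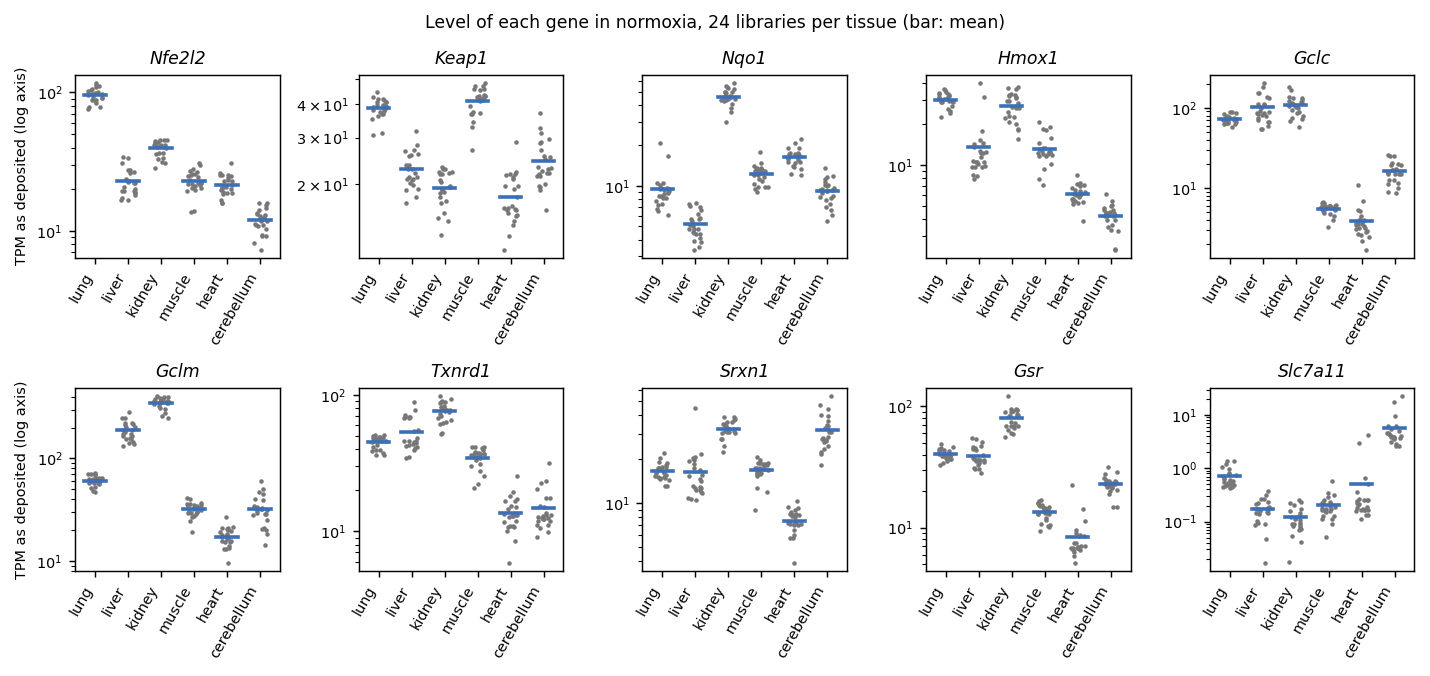
Level of each gene in normoxia in 6 tissues, as TPM on a log axis; points are the 24 libraries of a tissue and bars their means. Kidney was at the top for 6 genes and heart at the bottom for 6. When TPM were scaled over all normoxia libraries, 9 of the 124 pairs that passed on both scales turned direction. These 9 were all in Keap1, Nqo1, Hmox1 and Txnrd1, and other pairs were not compared for direction.

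Because TPM are shares of a total, the order of tissues also rests on what else each tissue transcribes. Scaling all normoxia libraries together by the median of ratios gave factors with medians from 0.574 in liver to 1.70 in lung. On that scale 141 of 150 pairs passed, 124 of them pairs that had passed on TPM as deposited. Of these 124 pairs 9 turned direction, and pairs that did not pass on both scales were not compared for direction. Keap1 turned in lung against liver, lung against heart and heart against cerebellum, and Nqo1 in lung against liver and liver against cerebellum. Hmox1 turned in lung against liver and lung against kidney, and Txnrd1 in lung against muscle and liver against kidney. The largest turns were those of Keap1 in lung against liver, from 0.76 to -0.72 in log2, and of Hmox1 in the same pair, from 1.25 to -0.22.

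The central question of the design is how each tissue's mean over the 24 h differed after IH. For this, TPM were scaled by the median of ratios within each tissue, and log2(scaled TPM + 0.5) was tested with limma over every gene with a mean of at least 1 TPM. A gene passed at an adjusted p of 0.05 or less, and was called changed when its difference also reached 1.5-fold. Slc7a11 reached the minimum in lung and cerebellum, and the other 9 genes in all 6 tissues. In lung Slc7a11 averaged 0.709 TPM in normoxia and 1.58 TPM after IH, so it came over the minimum only through the treatment in which it was high. Its lung values are therefore given as a description and left out of the main lung counts. Of the 55 other tests of a member in a tissue, 21 passed, 12 lower and 9 higher after IH, and 1 was called changed.

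**Figure D2:**
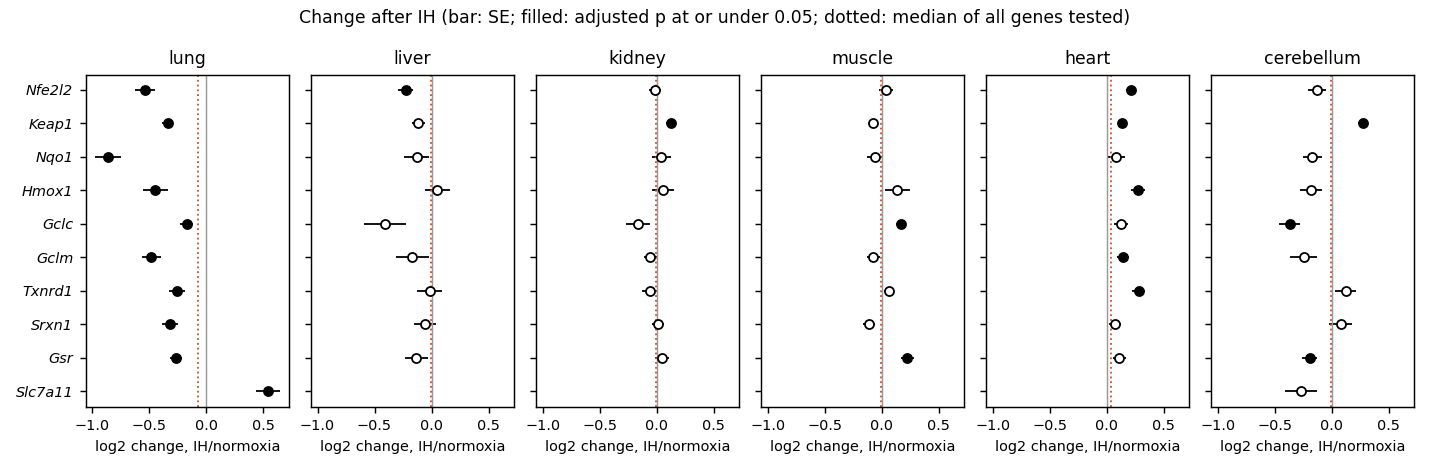
Log2 change of each gene after IH in each tissue, on TPM scaled within the tissue, with bars of 1 SE; filled points passed at adjusted p 0.05 and the dotted line is the median of all genes tested. In lung 9 genes lay to the left and Slc7a11 to the right, but Gclc, Gsr and Txnrd1 lay right of 0 on TPM as deposited; in heart all 9 points lay to the right.

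In lung, the 9 members that averaged at least 1 TPM in both treatments all passed lower, where 43.6% of the 14645 genes with such means did. Over all 15426 genes tested 70.4% passed, 41.5% lower and 28.9% higher. A single member, Nqo1, was also past 1.5-fold, where 13.5% of all genes were and 4.39% lower. The median of the 9 members was -0.34 in log2 against -0.076 for all genes tested. The share of members that passed therefore has to be read against a lung in which most genes passed.

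The quinone reductase Nqo1 moved furthest. Its scaled TPM in normoxia ran from 6.78 over a median of 9.59 to 23.8, and after IH from 2.68 over 5.07 to 8.73. No IH library lay above the normoxia median, although the ranges overlapped. The log2 change was -0.86 ± 0.11 (SE, adjusted p = 3.73e-09, limma).

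Nfe2l2 itself ran from 86.6 over 103 to 124 scaled TPM in normoxia and from 43.4 over 73.4 to 115 after IH, with 3 of 24 IH libraries above the normoxia median. Its change was -0.54 ± 0.086 (adjusted p = 3.65e-07, limma). Keap1 ran from 38.2 over 42.2 to 47.1 in normoxia and from 25.2 over 33.3 to 41.8 after IH. Its 24 IH libraries were all below the normoxia median, and the change was -0.34 ± 0.048 (adjusted p = 3.2e-08). The factor and its repressor were thus both lower on this scale.

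The glutathione genes parted. Gclm ran from 51.8 over 65.6 to 79.8 scaled TPM in normoxia and from 27.3 over 49.2 to 69.6 after IH, a change of -0.49 ± 0.083 (adjusted p = 1.54e-06, limma). Gclc, its catalytic partner, ran from 64.0 over 74.8 to 100 in normoxia and from 53.4 over 70.7 to 110 after IH, the smallest change of the members at -0.17 ± 0.059 (adjusted p = 0.00821). The ratio of Gclc to Gclm, which needs no scaling, was 1.20 ± 0.15 in normoxia and 1.51 ± 0.33 after IH (SD, n = 24 each), and its ranges overlapped (0.926 to 1.47 and 0.988 to 2.24). Slc7a11 ran from 0.449 over 0.629 to 1.86 in normoxia and from 0.870 over 1.13 to 3.22 after IH. All 24 IH libraries were above the normoxia median, and the difference was 0.54 in log2, at levels near 1 TPM where the added 0.5 damps a difference.

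The reductases were lower by less than Nqo1, Nfe2l2 and Gclm, and Hmox1 lay near Gclm. Srxn1 fell by 0.32 in log2 (SE 0.070, adjusted p = 7.46e-05, limma), with medians of 17.6 and 15.2 scaled TPM. Gsr fell by 0.27 (SE 0.053, adjusted p = 1.84e-05) with medians of 43.4 and 37.7, and Txnrd1 by 0.26 (SE 0.069, adjusted p = 0.000828) with medians of 49.8 and 43.1. Hmox1 fell by 0.45 (SE 0.11, adjusted p = 0.000385), and its IH libraries, 11.5 to 49.8 with a median of 28.4, spread far wider than the normoxia ones at 26.0 to 40.4 with a median of 33.0.

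**Figure D3:**
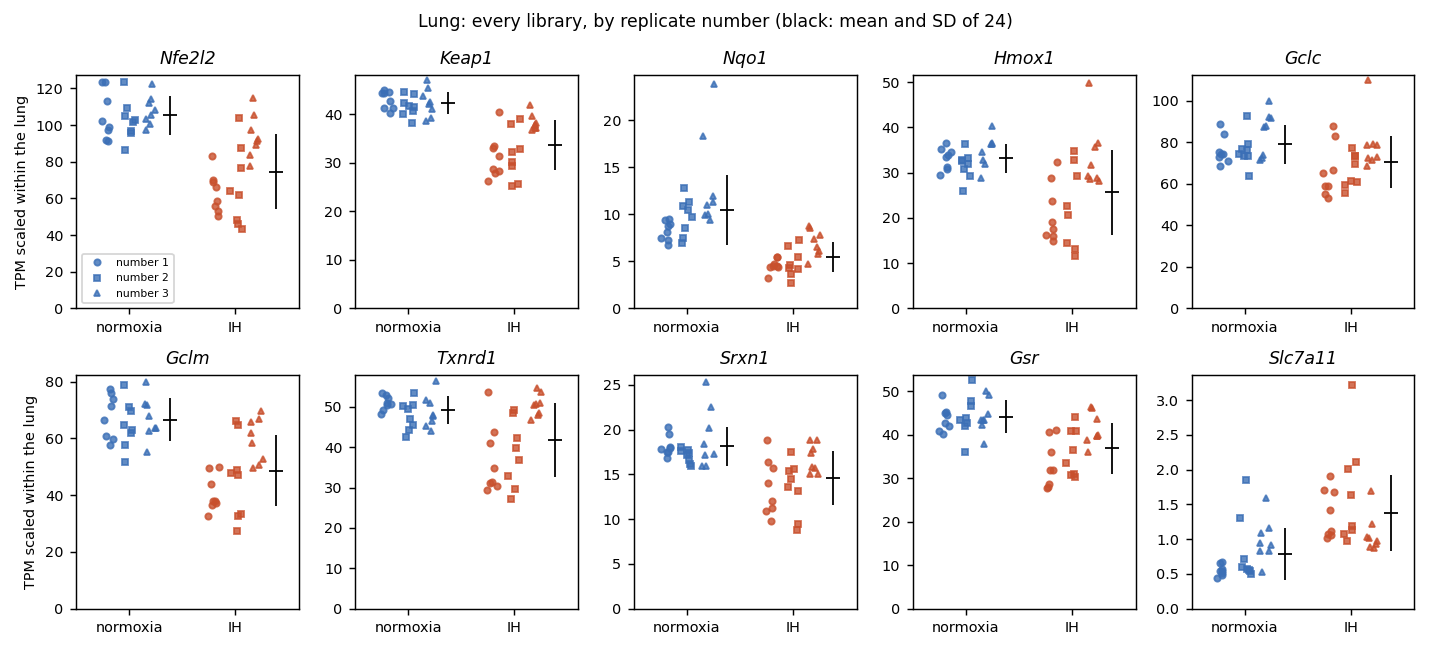
Scaled TPM of each gene in every lung library, by treatment and by replicate number (shape), with the mean and SD of 24 libraries in black. The IH libraries of number 3 sat closer to normoxia than those of numbers 1 and 2 for most genes. All 24 IH libraries of Nqo1 were below the normoxia median of 9.59. Slc7a11 aside, Nfe2l2, Nqo1 and Gclm passed on TPM as deposited, all lower, where 65.7% of all genes passed in either direction.

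A pair of measures bears on these lung values directly, the scale and the make-up of the libraries. On TPM as deposited the median of all lung genes was 0.21 after IH, against -0.076 with scaling. Slc7a11 aside, Nfe2l2, Nqo1 and Gclm passed, all lower, where 65.7% of all genes passed in either direction. On that scale Gclc, Gsr and Txnrd1 turned to 0.13, 0.032 and 0.0397, none of which passed. Dividing each library by a single factor shifts all its genes nearly alike, so a gene's place relative to the all-gene median hardly depends on the scale. The 9 members other than Slc7a11 lay below that median on both scales, which adds nothing to the scaled result. The lung IH libraries also held more detected genes, 23622 to 28284 (median 24788.5) against 21746 to 25400 (median 22690.5). With that number as a further term Nqo1 still passed lower, Hmox1 (0.30, adjusted p = 0.0145, limma) and Txnrd1 (0.21, adjusted p = 0.00663) passed higher, and the other 7 members did not pass, where 52.5% of all genes did.

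Cell type markers moved in the lung as well. All 6 markers of alveolar and airway epithelium passed lower, their summed scaled TPM being 160455 to 359932 in normoxia and 25304 to 188875 after IH. All 5 endothelial markers were lower (sums of 1114 to 1949 and 549 to 1573) and all 7 red blood cell markers were lower (sums of 45294 to 201284 and 21145 to 193111). Of 6 heart markers, 4 were higher (sums of 179.9 to 887 and 172 to 795), as were 2 of 6 neutrophil markers. Of the 4 muscle markers with at least 1 TPM in both treatments 1 was higher, and of 7 macrophage markers 1 was higher and 2 lower. None of these markers was at 0 in all libraries of a group, and their part in the changes of the members was not tested.

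By replicate number, the third set of lung libraries differed less. Nfe2l2 changed by -0.74 and -0.70 in log2 in numbers 1 and 2 and by -0.21 in number 3, Hmox1 by -0.70, -0.61 and -0.068, and Slc7a11 by 0.81, 0.69 and 0.097. Nqo1 was an exception, at -0.80, -0.99 and -0.83. Slc7a11 aside, 7 members passed lower without number 1 (Gclc and Txnrd1 did not), 8 without number 2 (Gclc did not) and all 9 without number 3. Of all genes 61.5%, 61.3% and 70.1% passed in either direction.

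**Figure D4:**
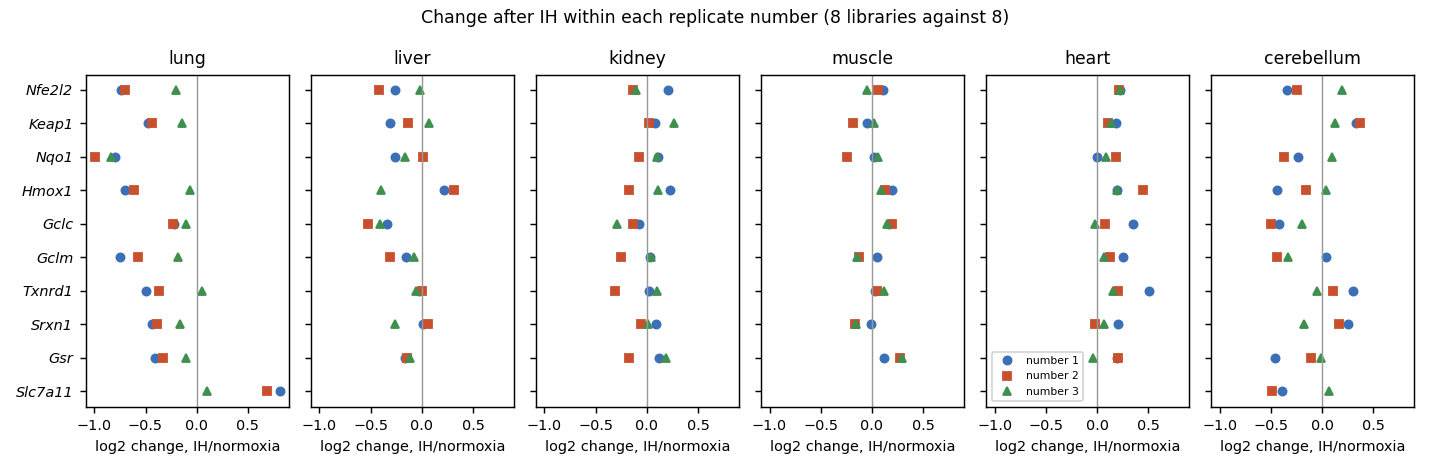
Log2 change of each gene after IH within each replicate number (8 IH against 8 normoxia libraries of scaled TPM), in 6 tissues. In lung number 3 lay nearest to 0 for every gene except Nqo1, whose 3 points were between -0.99 and -0.80, and in cerebellum the numbers of Nfe2l2 and Nqo1 fell on both sides of 0; Gclc, Gsr and Txnrd1 in lung were higher on TPM as deposited.

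In heart the direction was the opposite. Of 9 members tested, 5 passed, all higher, where 45.2% of all 12779 genes passed (28% higher and 17.3% lower), and none reached 1.5-fold, where 2.95% of all genes did. The median of the members was 0.14 in log2 against 0.037 for all genes.

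Txnrd1, the cytosolic thioredoxin reductase, ran from 7.80 over 14.2 to 16.3 scaled TPM in heart in normoxia and from 13.0 over 17.2 to 19.9 after IH, a change of 0.28 ± 0.057 (adjusted p = 8.9e-05, limma). Hmox1 ran from 4.62 over 6.38 to 8.60 and from 6.01 over 7.66 to 11.2 (0.27 ± 0.062, adjusted p = 0.000429). Nfe2l2 ran from 16.8 over 22.2 to 28.3 and from 21.9 over 25.4 to 29.6 (0.21 ± 0.044, adjusted p = 0.00018). For Nfe2l2, 23 of 24 IH libraries were above the normoxia median, and the ranges of all 3 genes overlapped between treatments. Keap1 rose by 0.14 (SE 0.031, adjusted p = 0.00038) and Gclm by 0.14 (SE 0.053, adjusted p = 0.0284). Gclc (0.12), Gsr (0.11), Nqo1 (0.079) and Srxn1 (0.074) did not pass, with adjusted p from 0.102 to 0.421.

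Within replicate numbers the heart changes of Nfe2l2 were alike (0.22, 0.21 and 0.23), while Txnrd1 changed by 0.51, 0.21 and 0.16. Gclm no longer passed without number 1 or without number 2, where 4 members remained and 24% and 36.9% of all genes passed. Without number 3 Gclc and Gsr passed too (adjusted p = 0.00944 and 0.00279, limma), where 45% of all genes did. The same 2 genes passed without the normoxia libraries at 7:30 and 19:30 of number 3 (0.00388 and 0.00208, 51.1% of all genes), whose median correlations were 0.822 and 0.872. On TPM as deposited Nqo1 (0.00778) and Srxn1 (0.034) passed, where 43.9% of all genes did. Here too the libraries differed in make-up: the heart IH libraries held 20316 to 22793 detected genes and the normoxia ones 22988 to 28331, with no overlap, so that term and treatment cannot be told apart, and with the number of detected genes as a further term no member passed and 2.01% of all genes did. Of 5 endothelial markers, 4 passed higher in heart (sums of 71.1 to 289 scaled TPM in normoxia and 173 to 331 after IH). Of 6 macrophage markers, cells that are rich in Hmox1, 2 passed higher and none lower (sums of 151 to 311 and 175 to 349, median log2 change 0.14). No marker of either list was at 0 in all libraries of a group, and their part was not tested.

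Lung and heart were set against each other in one fit. The change after IH differed between the 2 tissues for 9 of 9 members tested, where 65.2% of 12445 genes did. The difference, lung minus heart, was -0.94 ± 0.14 for Nqo1 (adjusted p = 5.35e-09, limma), -0.75 ± 0.097 for Nfe2l2 (adjusted p = 1.7e-10) and -0.72 ± 0.13 for Hmox1 (adjusted p = 8.49e-07), and the smallest was -0.30 ± 0.087 for Gclc (adjusted p = 0.00191). Without replicate number 1 Gclc no longer passed (-0.18), and on TPM as deposited Gclc (-0.0999), Gsr (-0.19) and Srxn1 (-0.22) did not. Over all 6 tissues, too, the response of 9 of 9 members differed, where 88.3% of 9876 genes did.

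In liver, 1 of 9 members passed, lower, where 24.2% of all 11334 genes passed (13.3% lower), and none reached 1.5-fold, where 3.65% did. Nfe2l2 ran from 15.2 over 20.9 to 28.0 scaled TPM in normoxia and from 14.7 over 17.7 to 26.2 after IH, a change of -0.23 ± 0.066 (adjusted p = 0.00946, limma), with 4 of 24 IH libraries above the normoxia median. Gclc was -0.41 ± 0.18 and did not pass (adjusted p = 0.0937), but it passed with time point (-0.41, adjusted p = 0.0423) or the number of detected genes (-0.47, adjusted p = 0.0416) as a further term. Its IH range of 8.66 to 155 scaled TPM began with the library labelled liver, IH, 13:30, number 2, in which Gclm (27.3), Txnrd1, Gsr, Srxn1 and Hmox1 were also the lowest of the 24 and Nqo1 (10.4) the highest. Without that library Nfe2l2 again was the member that passed, where 29% of all genes did, and Gclc was -0.29 (adjusted p = 0.118, limma).

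The liver result depended on the replicate number. Nfe2l2 changed by -0.27, -0.42 and -0.020 in numbers 1, 2 and 3, and Hmox1 by 0.21, 0.31 and -0.40. Without number 1 or without number 2 no member passed with limma, while without number 3 Nfe2l2, Keap1 and Hmox1 did. All genes moved in the same way, with 0.962%, 2.11% and 41.4% of them passing without numbers 1, 2 and 3, and the change of Nfe2l2 was -0.21, -0.13 and -0.34. In these libraries 6 of 6 heart markers were higher after IH (sums of 3.76 to 52.2 and 24.2 to 14395 scaled TPM), as were the 3 kidney markers that could be tested, 1 of them above 1 TPM after IH alone (sums of 0.708 to 93.1 and 33.2 to 770). Of 5 red blood cell markers 4 were higher and Alas2 was lower (sums of 1644 to 4321 and 1161 to 56544). The liver's own markers were lower, 2 of 6 of them passing, both past 1.5-fold (sums of 42367 to 68119 and 2191 to 59360). Endothelial markers were higher in 3 of 5 (sums of 21.6 to 36.1 and 23.9 to 204) and neutrophil markers in 2 of the 2 that could be tested (sums of 1.59 to 8.63 and 1.75 to 20.2), and of 7 macrophage markers 2 were higher and 1 lower. Their part was not tested.

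In kidney, the tissue with the highest level of 6 members, 1 of 9 passed, higher, where 19.8% of all 12902 genes passed (8.25% higher), and none reached 1.5-fold, where 0.783% did. Keap1 ran from 15.7 over 18.9 to 22.6 scaled TPM in normoxia and from 16.2 over 20.7 to 29.8 after IH (0.12 ± 0.045, adjusted p = 0.0424, limma). It did not pass without number 1, without number 3 or on TPM as deposited, where 17.4%, 15.5% and 7.82% of all genes did, and its changes within numbers were 0.082, 0.019 and 0.26. The other 8 genes lay between -0.17 (Gclc) and 0.054 (Hmox1). Of 6 red blood cell markers tested, 5 were higher (sums of 2708 to 5828 and 3193 to 17012 scaled TPM), as were 2 of 5 endothelial and 2 of 5 adipocyte markers, and their part was not tested.

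In muscle, 2 of 9 members passed, both higher, where 10.4% of all 12824 genes passed (5.48% higher), and none reached 1.5-fold, where 0.374% did. Gsr ran from 11.2 over 13.9 to 17.8 scaled TPM and from 12.8 over 16.2 to 23.2 after IH (0.23 ± 0.056, adjusted p = 0.00524, limma). Gclc ran from 4.75 over 5.69 to 6.38 and from 5.47 over 6.17 to 9.93 (0.17 ± 0.043, adjusted p = 0.00726). The changes of Gclc within numbers were 0.17, 0.19 and 0.15, and those of Gsr 0.12, 0.27 and 0.29. Without number 2 neither passed, although the changes were nearly as large (Gclc 0.16, adjusted p = 0.163, and Gsr 0.20, adjusted p = 0.148), and 2.63% of all genes passed. Without number 3 Keap1 passed as well, lower (-0.12, adjusted p = 0.0282), where 9.44% of all genes passed.

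In cerebellum, 3 of 10 members passed, where 15% of all 14892 genes did (9.76% higher and 5.24% lower), and none reached 1.5-fold, where 2.64% did. Keap1 ran from 18.5 over 24.7 to 28.1 scaled TPM in normoxia and from 24.9 over 29.1 to 33.5 after IH, with 24 of 24 IH libraries above the normoxia median (0.27 ± 0.046, adjusted p = 5.43e-05, limma). Gclc ran from 9.31 over 15.9 to 21.7 and from 5.47 over 12.6 to 18.1 (-0.37 ± 0.096, adjusted p = 0.00622), and Gsr from 17.0 over 22.6 to 28.0 and from 13.1 over 20.1 to 27.5 (-0.19 ± 0.068, adjusted p = 0.0438). Slc7a11, at its highest here, was -0.27 ± 0.14 (adjusted p = 0.184).

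This tissue held 8 of the 9 libraries that went against their labels. Without them Keap1 and Gclc passed and Gsr did not, where 16.9% of all genes passed. In the library labelled IH, 1:30, number 3, Nfe2l2 (22.9 scaled TPM), Nqo1 (14.2) and Hmox1 (7.08) were the highest of the 24 IH libraries. Srxn1 (11.3) was the lowest there. Without that library alone Nfe2l2 and Nqo1 passed beside the first 3, where 24.4% of all genes passed. Without replicate number 1 Keap1 alone passed (1.2% of all genes), without number 2 no member did (0.321%), and without number 3 Nfe2l2, Nqo1 and Hmox1 passed beside the first 3 (35.1%). On TPM as deposited none passed with limma, where 6.29% of all genes did, although the changes were about as large: 0.26 for Keap1 (adjusted p = 0.0628), -0.38 for Gclc (0.124) and -0.20 for Gsr (0.272). Of 6 macrophage markers 2 were higher (sums of 46.6 to 131 and 47.9 to 197 scaled TPM), and their part was not tested.

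Time over 24 h was the second axis of the design. A 24-hour cosine curve was fitted to the 24 libraries of each tissue and treatment and tested with limma, and times are those of the labels, which do not say whether they are clock or circadian time. The clock genes placed the axis: Arntl, the core activator of the clock, peaked between 21.7 h and 0.35 h, and Dbp, a direct clock output, between 8.09 h and 10.6 h, in every tissue and treatment except cerebellum, where Arntl did not pass and Dbp passed after IH alone.

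In normoxia 6 of 56 tests of a member passed (11 at an unadjusted p of 0.05), and after IH 3 of 56 (also 11 unadjusted). In lung 1 of 10 members passed in normoxia and 0 after IH, where 9.15% and 4.65% of all genes did. In liver it was 1 of 9 and 0 (17.7% and 2.63% of all genes), in kidney 1 of 9 in either treatment (21% and 5.74%), in muscle 3 and 2 of 9 (6.38% and 8.83%), in heart 0 of 9 (0.626% and 4.17%) and in cerebellum 0 of 10 (0% and 0.0134%). At an unadjusted p of 0.05 heart had 0 members in normoxia and 2 after IH, cerebellum 0 in both, lung 0 after IH and liver 1 after IH.

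Nfe2l2 peaked between 11.5 h and 13.4 h of the labels in both tissues where it passed. In normoxic lung the fitted peaks of the clock genes were 8.09 h (Dbp), 12.8 h (Per2) and 22.3 h (Arntl). In normoxic muscle they were 10.1 h, 13.0 h and 23.0 h. Samples were 3 h apart, and a link in phase was not tested. In normoxic lung its 3 libraries at 13:30 averaged 123 scaled TPM (122 to 124) and those at 4:30 averaged 92.9 (86.6 to 100). These times are shown to describe the fitted rhythm and are no separate test. The fitted peak was at 13.4 h, with a peak 1.23-fold above the trough (adjusted p = 0.00631, limma). In normoxic muscle the means were 27.8 at 13:30 (27.0 to 28.4) and 20.6 at 1:30 (17.5 to 24.1), with a peak at 11.5 h and a range of 1.34-fold (adjusted p = 0.000327). After IH neither passed, but neither difference in rhythm passed either.

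Hmox1 passed in kidney and muscle under both treatments. In kidney the fitted peak was at 17.1 h with a 1.43-fold range in normoxia (adjusted p = 0.0204, limma) and at 19.0 h with 1.71-fold after IH (adjusted p = 0.00398). In muscle it was at 10.6 h with 1.45-fold in normoxia (adjusted p = 0.00893) and at 14.4 h with 2.05-fold after IH (adjusted p = 0.000873). The muscle libraries averaged 17.0 scaled TPM at 10:30 and 10.0 at 1:30 in normoxia, and 22.1 at 13:30 and 9.96 at 4:30 after IH.

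Gclc in normoxic liver averaged 131 scaled TPM at 1:30 (106 to 170) and 69.7 at 13:30 (52.9 to 90.5), with a peak at 1.93 h and a 1.70-fold range (adjusted p = 0.0123, limma). Srxn1 in normoxic muscle peaked at 15.3 h (1.22-fold, adjusted p = 0.0409), and Txnrd1 in muscle after IH at 18.3 h (1.24-fold, adjusted p = 0.0378).

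**Figure D5:**
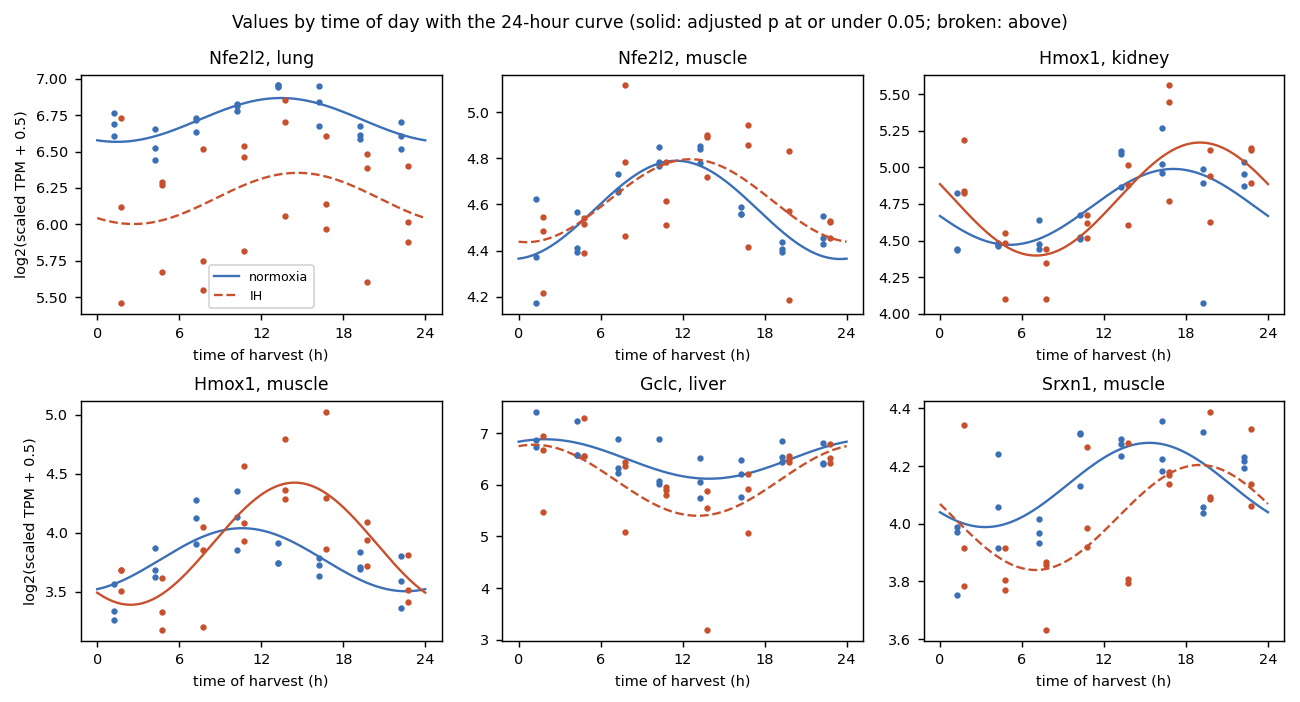
Values of 6 gene and tissue pairs by time of harvest, as log2(scaled TPM + 0.5), with the fitted 24-hour curve for normoxia (blue) and IH (red); points are libraries, 3 per time, and solid curves passed at adjusted p 0.05. Hmox1 in kidney and muscle had solid curves in both treatments, and Nfe2l2, Gclc and Srxn1 in normoxia.

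These rhythm calls depended on which replicate numbers were used. No share of all genes is given for these settings, so a loss of calls cannot be read as particular to the members. Leaving out 1 replicate number at a time (2 libraries per time point) left 2, 2 and 3 calls in normoxia, the lung Nfe2l2 call being lost without number 1 (adjusted p = 0.198, limma), liver Gclc without number 1 (0.133) or 2 (0.129), kidney Hmox1 without number 2 (0.15) or 3 (0.195), muscle Nfe2l2 without number 2 (0.0513), and muscle Hmox1 and Srxn1 without any of the 3 (0.0671 to 0.117 and 0.066 to 0.628). Without number 2, Gclm in lung passed in addition (0.0424). After IH it left 1, 1 and 3 calls: kidney Hmox1 was lost without number 1 (0.345) or 3 (0.0509), muscle Hmox1 without number 2 (0.0556) and muscle Txnrd1 without any (0.07 to 0.358), while without number 3 kidney Srxn1 (0.014) and muscle Nfe2l2 (0.0498) passed in addition. The difference in rhythm between IH and normoxia passed for 0 of 56 tests with limma (2 at an unadjusted p of 0.05, muscle Hmox1 with p = 0.000488, adjusted 0.983, and muscle Gclc with p = 0.0292), and for 0% of all genes in each of the 6 tissues.

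Other genes of the pathway were read from 3 lists. Of 36 further genes described as NRF2 targets (conjugation, NADPH supply, efflux and iron storage), 33 were tested in lung: 29 passed lower, 16 of them past 1.5-fold, and 1 passed higher, with a median log2 change of -0.57. Over all lung genes 41.5% passed lower, 4.39% past 1.5-fold, and the median was -0.076. Gsta2 and Gsta4, glutathione transferases, fell by 0.95 and 0.81 (12.4 to 8.06 and 133 to 97.3 mean TPM as deposited, adjusted p = 3.22e-07 and 1.02e-07, limma). Gpx2, a glutathione peroxidase of epithelia, fell by 0.77 (40.8 to 30.2 TPM, adjusted p = 2.5e-06, limma). Here and below, log2 changes and counts past 1.5-fold are on scaled TPM, and means in brackets are TPM as deposited. On the deposited scale the median of all lung genes was 0.21 after IH. The lung means of these 3 genes therefore differ by less than the log2 changes printed. With the number of detected genes as a further term, none of these 3 passed, and markers of lung epithelium and endothelium were lower in the same libraries, as given above.

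In liver 12 of 33 of the further targets passed lower, 9 of them past 1.5-fold, and 1 higher, with a median of -0.23. Over all liver genes 13.3% passed lower, 2.55% past 1.5-fold, and 10.9% higher, with a median of -0.0070. The liver's own markers moved the same way, with a median of -0.45, and their part was not tested. Gsta1, a glutathione transferase, fell by 1.42 in log2 (30.5 to 10.6 TPM, adjusted p = 4.02e-07, limma), Abcc3, an exporter of conjugates, by 1.41 (89.5 to 39.0 TPM, adjusted p = 2.87e-06), and Ephx1, the microsomal epoxide hydrolase, by 0.91 (337 to 185 TPM, adjusted p = 7.82e-06). These 3 passed under each alternative that was run for the liver. In heart 11 of 32 passed higher and 2 lower (28% and 17.3% of all genes), 1 of the latter being Abcc3, which averaged 1 TPM in normoxia alone. The counts higher and lower were 4 and 1 of 32 in kidney (8.25% and 11.5% of all genes), 0 and 2 of 30 in muscle (5.48% and 4.89%) and 1 and 0 of 29 in cerebellum (9.76% and 5.24%).

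Of 20 partners, competitors and degradation factors of NRF2, 9 of 20 tested passed lower in lung and 2 higher, a smaller share than the 70.4% of all lung genes that passed (41.5% lower and 28.9% higher). The 2 were Mafg, a small MAF partner of NRF2, which rose by 0.83 (31.2 to 70.1 TPM, adjusted p = 2.61e-13, limma), and Bach2, which represses through related sites and rose by 0.59 (3.27 to 6.74 TPM, adjusted p = 4.14e-07) but did not pass with the number of detected genes as a further term. In liver 5 of 19 passed lower and 1 higher (13.3% and 10.9% of all genes), and Syvn1, an E3 ubiquitin ligase of the endoplasmic reticulum, fell by 0.64 (27.3 to 18.9 TPM, adjusted p = 0.0103), though not without number 1 (-0.50) or number 2 (-0.28). In heart 7 of 18 passed higher and 3 lower (28% and 17.3% of all genes), and the counts higher and lower were 1 and 1 of 18 in kidney (8.25% and 11.5%), 2 and 1 of 18 in muscle (5.48% and 4.89%) and 4 and 2 of 20 in cerebellum (9.76% and 5.24%). Of 17 other enzymes and carriers of the glutathione and thioredoxin cycles, 10 of 17 passed lower in lung and none higher (41.5% and 28.9% of all genes). In liver 4 of the 14 that averaged at least 1 TPM in both treatments passed lower and none higher (13.3% and 10.9% of all genes). Ggt1, which splits extracellular glutathione, came over the minimum only through IH, with means of 0.515 TPM in normoxia and 1.79 TPM after IH, and is given without a test. Ggt1 averaged 658 TPM in normoxic kidney. Kidney markers were higher in the same liver libraries, 2 of the 2 with at least 1 TPM in both treatments (median log2 change 3.01). Their part was not tested. The counts higher and lower were 2 and 0 of 16 in kidney, 1 and 0 of 14 in muscle, 2 and 2 of 14 in heart and 4 and 2 of 17 in cerebellum, against the same shares of all genes as above.

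Beyond the means, the members were compared by how their libraries deviated within a treatment and time point. For each gene the residuals of 48 libraries per tissue were correlated and r was averaged over tissues, a description in which the points share library, scaling and depth. Libraries that went against their labels were included, and r was not recomputed without them. In the library labelled liver, IH, 13:30, number 2, Gclc, Gclm, Txnrd1, Srxn1 and Gsr were the lowest of the 24 IH libraries. The liver also gave the highest r of Gclc with Txnrd1 (0.922) and with Gclm (0.902). Txnrd1 was the member nearest to 3 others, being the closest of 9875 genes to Srxn1 (mean r 0.679, 0.56 to 0.879 by tissue), to Gclm (0.636, 0.202 to 0.906) and to Gclc (0.616, 0.242 to 0.922). The 2 ligase subunits themselves had a mean r of 0.487, from -0.1 to 0.902. Nfe2l2 and Keap1 had a mean r of 0.218. It was 0.918 in lung, 0.402 in liver, 0.21 in heart, -0.028 in kidney, -0.043 in cerebellum and -0.155 in muscle. The high r in lung was not particular to this pair. There Nfe2l2 had r from 0.807 (Gsr) to 0.953 (Hmox1) with Gclc, Gclm, Hmox1, Txnrd1, Srxn1 and Gsr. With Nqo1 it was 0.647 and with Slc7a11 -0.525.

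Outside the set, the closest genes were Tcn2 (0.614) and Serinc3 (0.604) for Nfe2l2, Psmd3 (0.763) and Srp68 (0.713) for Keap1, Vdac1 (0.64) and Pdk2 (0.617) for Nqo1, and Lgmn (0.659) and Degs1 (0.642) for Hmox1. Those for Txnrd1 were Timm29 (0.803) and Hs6st1 (0.792), and for Gsr Hnrnpk (0.656) and Minpp1 (0.642). The second closest were Gosr1 for Gclc (0.607), Lap3 for Gclm (0.619) and Ghitm for Srxn1 (0.627). Slc7a11, compared over lung and cerebellum with 13177 genes, was closest to Gm47951 (0.887) and Olfr607 (0.887), and its mean r with every other member was negative, from -0.557 (Keap1) to -0.109 (Nqo1).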

How the data were processed

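RNA of whole tissues was extracted with Trizol, poly(A)-selected, made into directional libraries and sequenced on a NovaSeq. The authors quantified reads with kallisto against the Ensembl transcripts of mm10, checked quality with FastQC 0.11.3, and deposited TPM summed per gene in 12 tables, 1 per tissue and treatment; their DESeq2 test used estimated counts that were not analysed here. TPM sums were 989211 to 999188 per library, so the depth of each library, and with it its counting error, is unknown. The study gives a minimum and a median number of reads for the series. A single transcript, Gm19220, took up to 63.3% of a library. The check for identical libraries found 0.

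The members and all lists were chosen with earlier results of these data known. Named genes were the members, up to 3 genes per further list and tissue called changed with the largest change, and the 2 genes most like each member.

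TPM were scaled within a tissue by the median of ratios, and log2(scaled TPM + 0.5) was tested, for genes averaging 1 TPM or more, with limma 3.58.1 (R 4.3.3, intensity trend, Benjamini-Hochberg adjustment over all genes). Rhythm was tested by cosine and sine terms of 24 h, and tissue differences by interaction terms over all libraries or the 96 of lung and heart, taken as independent because the labels do not tie tissues to animals. Levels were compared by permutation. The fits were tested on simulated data first. Alternatives were TPM as deposited, pseudocounts of 0.1 and 1, minima of 5 TPM and none, each replicate number left out, further terms, replicate blocks, and libraries left out; leaving out the 8 libraries with a median correlation under 0.88 and the 9 with higher markers of another tissue were chosen after seeing the data.

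Positions are from GRCm38 and promoter windows from RefSeq (GRCm38.p6).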

Additional observations from a re-analysis of the deposited data

Results flagged for a closer look

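The response of the members to IH differed between tissues. Over all 6 tissues the adjusted p of the limma interaction was 2.38e-20 for Keap1, 4.53e-12 for Nfe2l2, 1.89e-11 for Nqo1, 8.84e-07 for Gsr, 1.44e-05 for Hmox1, 7.74e-05 for Txnrd1, 0.000181 for Gclc, 0.000311 for Gclm and 0.00197 for Srxn1. Keap1 had the smallest of these although its level spanned least over the tissues, and it passed lower in lung and higher in kidney, heart and cerebellum.

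Between lung and heart the difference of the log2 changes, lung minus heart, was -0.94 for Nqo1, -0.75 for Nfe2l2, -0.72 for Hmox1, -0.63 for Gclm, -0.54 for Txnrd1, -0.48 for Keap1, -0.39 for Srxn1, -0.38 for Gsr and -0.30 for Gclc. Each was lower in lung, and 65.2% of all genes also differed between these tissues. The number of detected genes moved in opposite directions in lung and heart after IH, and endothelial markers were lower in lung (5 of 5) and higher in heart (4 of 5). Their part in the differences was not tested.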

How the results depend on the processing

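Of 1237 values recomputed under alternatives, 149 were counts of members or pairs, of which 122 stayed within 1.5 times the reported count. On TPM as deposited the members that passed were 3 in lung, Slc7a11 aside, 0 in kidney and 0 in cerebellum. Of all genes 65.7%, 7.82% and 6.29% passed there. On that scale 2 rhythms passed in normoxia, and in lung Gclc (0.13), Gsr (0.032) and Txnrd1 (0.0397) turned direction. With the number of detected genes as a term, 3 members passed in lung, 3 in liver and 0 in heart, where 52.5%, 29.3% and 2.01% of all genes did. In lung Gclc (0.0545), Hmox1 (0.30), Nfe2l2 (0.0199), Srxn1 (0.0743), Txnrd1 (0.21) and Slc7a11 (-0.0704) turned with that term. With time point as a term, 2 passed in liver, where 25.7% of all genes did. With time as a factor, 3 rhythms passed in normoxia. With no minimum, 0 passed in kidney (9.06% of all genes). Without the cerebellum library labelled IH, 1:30, number 3, 5 passed in cerebellum (24.4% of all genes). Signs of values that passed in neither setting were not compared. Leaving out 1 replicate number gave 7 to 9 members in lung, Slc7a11 aside (61.3% to 70.1% of all genes), and 0 to 3 in liver (0.962% to 41.4%). It gave 0 to 1 in kidney (15.5% to 19.7%) and 0 to 3 in muscle (2.63% to 11.9%). In heart it gave 4 to 7 (24% to 45%) and in cerebellum 0 to 6 (0.321% to 35.1%). It also left 2 to 3 rhythms in normoxia and 1 to 3 after IH, and 130 to 133 pairs of tissues. Same-numbered libraries deviated together (r above 0.1) in 5 to 16 of 24 pairs per tissue. The most were in liver, 16 pairs with a median r of 0.22, followed by muscle with 12 pairs and a median of 0.10. The labels name no animal, so the numbers were not treated as pairs in the reported tests, and whether they mark pairs was not tested. With a replicate block by time point and number 2 members passed in liver, Nfe2l2 and Gclc (-0.41, adjusted p = 0.0124 with limma). Of all liver genes 32.1% passed with that block and 24.2% without it. With number as a replicate block 5 rhythms passed after IH and 8 in normoxia. The counts of rhythms under alternatives have no share of all genes beside them and describe the members alone. The other alternatives left each count within 1.5 times. The causes were not tested. What limits the values: TPM keep no depth, 3 libraries stand for each time point, and the scaling moved the median of all lung genes by more than Gclc, Gsr and Txnrd1 changed.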

Other observations

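Slc7a11 in normoxic cerebellum held 2 libraries at 7:30 with 22.5 and 17.6 TPM, where the median of the 24 was 4.13. After IH its 24 cerebellum libraries ran from 2.80 to 5.06 scaled TPM. In heart, where its mean was under 1 TPM and it was not tested, the median was 0.223 scaled TPM in normoxia and 0.0832 after IH, and 4 of 24 IH libraries were above the normoxia median; with no minimum it passed in heart.

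In normoxic lung, 1 of the 24 Nqo1 libraries reached 23.8 scaled TPM against a median of 9.59, and 1 normoxic liver library reached 31.3 scaled TPM of Hmox1 against a median of 11.2. The spread of Hmox1 within a treatment was wider after IH than in normoxia in lung (coefficient of variation 36.4% and 9.61%) and muscle (37.7% and 20%), and narrower in liver (21.5% and 41.4%); these differences in spread were not tested.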
